A study of Mus musculus with 2 samples.

Results

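Among 17238 measured genes, 9 were examined as marker genes of group 3 innate lymphoid cells (ILC3) of the mouse small intestine: Pcp4, Eps8l3, Pram1, Gda, Ffar2, Car2, Hs6st2, Ppp1r3b and Rell1. All 9 were listed from earlier results of the same cells, in which their levels had already been compared between the tissues, so their levels are a description and carry no test. The study profiled single cells sorted as IL7ra+ innate lymphoid cells from fed C57BL/6 mice aged 8 weeks. One library came from small intestine and 1 from colon, each made of 8 pooled mice, with the 10x Genomics kit that counts the 3′ ends of transcripts. No library was repeated, so differences between mice or preparations cannot be told apart from differences between the tissues, and intervals given below are 95% intervals for counting error only.

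ILC3 are tissue lymphocytes without antigen receptors that supply interleukin 22 to the gut epithelium. In mice they include a CCR6+ state that resembles lymphoid tissue inducer cells and a state with the receptor NKp46, encoded by Ncr1. Group 2 cells (ILC2) depend on GATA3, which ILC3 also make at a lower level. Cells were therefore sorted in silico by unique molecular identifiers (UMIs, each standing for 1 captured transcript). A cell entered the ILC3 gates with at least 1 Ncr1, at least 1 Ccr6 or at least 5 Il22 UMIs, and the Gata3 gate with at least 1 Gata3 UMI.

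The small intestine library held 5490 cells and 15080081 UMIs (median 2579 UMIs a cell), and the colon library 7549 cells and 22332691 UMIs (median 2600). Both libraries shared 60 cell barcodes, against 56.2 expected from their sizes. The ILC3 gates took 3221 small intestine and 1606 colon cells, and the Gata3 gate 1643 and 4218 cells. The gates overlapped in 683 small intestine and 500 colon cells. Il23r, a receptor gene of ILC3, stood at 78.6 CPM (UMIs of the gene per 1e6 UMIs of the set) in the small intestine ILC3 gates and 20.1 CPM in cells of the Gata3 gate alone, and in the colon at 46.2 and 4.73 CPM. Il1rl1, an ILC2 receptor gene, stood at 1.47 and 42.5 CPM in the same small intestine sets. These 2 genes thus ran with the labels in the sets given, but the colon ILC3 gates had less Il23r than those of the small intestine. Other markers did not all follow the labels. In the 343 colon cells of the Ncr1 gate and no other gate, ILC1 and NK cell markers summed to 5256 CPM and ILC3 markers to 2163 CPM. In the small intestine cells chosen in this way the sums were 2668.5 and 3870 CPM.

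RefSeq (GRCm38.p6) promoter windows, from 250 bases before to 50 bases after a start site, were available here for 7 of the 9 genes. The set used held none for Car2 and Ppp1r3b. Where several starts are listed, the one nearest to the GENCODE gene start was taken. The start used lay 784 bases from the GENCODE gene start for Gda and 254 bases from it for Hs6st2. Windows are shown for 3 genes that were higher in Ncr1 than in Ccr6 cells (Pcp4, Pram1, Eps8l3) and for Rell1, which had the opposite pattern. Capitals mark matches, on either strand, to 6 short motifs whose letters are given after the sequences.
Pcp4 promoter, chr16:96467356-96467655, plus strand: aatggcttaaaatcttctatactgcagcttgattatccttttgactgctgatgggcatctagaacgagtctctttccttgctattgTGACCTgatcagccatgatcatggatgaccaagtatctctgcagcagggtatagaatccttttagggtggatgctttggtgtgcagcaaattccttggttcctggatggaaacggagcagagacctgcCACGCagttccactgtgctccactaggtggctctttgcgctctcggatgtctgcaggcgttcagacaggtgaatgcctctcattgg
Pram1 promoter, chr17:33637806-33638105, plus strand: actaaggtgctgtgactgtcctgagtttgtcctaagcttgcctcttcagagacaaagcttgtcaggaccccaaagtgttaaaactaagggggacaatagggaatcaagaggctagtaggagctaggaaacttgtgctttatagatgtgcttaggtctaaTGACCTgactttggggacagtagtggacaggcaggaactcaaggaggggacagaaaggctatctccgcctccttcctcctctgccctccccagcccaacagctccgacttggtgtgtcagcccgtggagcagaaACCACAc
Eps8l3 promoter, chr3:107876980-107877279, plus strand: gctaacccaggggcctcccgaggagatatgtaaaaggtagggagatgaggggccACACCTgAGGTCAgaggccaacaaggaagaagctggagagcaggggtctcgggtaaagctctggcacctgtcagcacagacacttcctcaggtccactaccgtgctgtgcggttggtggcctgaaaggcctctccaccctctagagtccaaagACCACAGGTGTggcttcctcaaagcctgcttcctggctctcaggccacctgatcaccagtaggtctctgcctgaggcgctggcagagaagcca
Rell1 promoter, chr5:63968848-63969147, minus strand: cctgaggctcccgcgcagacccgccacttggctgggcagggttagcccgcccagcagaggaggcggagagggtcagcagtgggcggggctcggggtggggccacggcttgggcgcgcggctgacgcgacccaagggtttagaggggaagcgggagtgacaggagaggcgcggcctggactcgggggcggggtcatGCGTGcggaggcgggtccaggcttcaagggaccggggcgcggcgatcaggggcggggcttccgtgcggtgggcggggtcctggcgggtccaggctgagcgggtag
A half-site bound by nuclear receptors, AGGTCA, was present in 5 of the 7 windows (Pcp4, Eps8l3, Pram1, Ffar2 and Hs6st2) and in 16.2% of 32544 windows of the same length. The core of the aryl hydrocarbon receptor site, GCGTG, was in 3 of 7 (Pcp4, Ffar2 and Rell1) against 32.6% of windows. A RUNX motif, TGTGGT, was in 2 of 7 (Eps8l3 and Pram1) against 16.7%. A T-box motif, AGGTGT, was in 1 of 7 (Eps8l3, 2 matches) against 13.8%, and 1 of its matches shares 1 base with a RUNX match. The GATA motif AGATAA was in 0 of 7 against 11.2%. The AP-1 motif TGAGTCA was in 0 of 7 against 5.2%. A match describes the letters of the window only, and binding was not measured.

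The first comparison set the ILC3 gates of the small intestine against those of the colon. Each of the 9 genes exceeded its colon level at least 2-fold, as did 7.73% of the 10823 genes with at least 20 UMIs over both sets. The members' median log2 ratio was 2.97, against 0.20 for all genes. Because the genes were chosen on this contrast, the count describes the choice.

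Ffar2 and Rell1 encode the members that sit in the cell membrane. Ffar2, which senses fatty acids made by gut bacteria (chromosome 7, 30818348 to 30823775, minus strand), stood at 209 CPM in small intestine cells of the ILC3 gates and 17.0 CPM in those of the colon, a 12.3-fold difference (interval 10.0 to 15.1). Rell1, of the RELT family of receptor-like proteins (chromosome 5, 63908897 to 63968897, minus strand), was at 132 and 24.5 CPM (5.41-fold, interval 4.55 to 6.47). Both genes were therefore readily counted in the colon as well, at a lower level.

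Of the other members, 3 bind or scaffold other proteins inside the cell. Pcp4, a small protein that binds calmodulin (chromosome 16, 96467606 to 96525793, plus strand), reached 284 CPM in small intestine cells and 4.39 CPM, or 26 UMIs, in colon cells. Its 64.8-fold difference (interval 44.1 to 99.3) had rank 2 among all genes tested. Pram1, an adaptor protein (chromosome 17, 33638056 to 33645706, plus strand), was at 89.7 and 8.10 CPM (11.1-fold, interval 8.27 to 15.1). Eps8l3, of the EPS8 family of actin regulators (chromosome 3, 107877229 to 107892900, plus strand), was at 86.3 and 8.10 CPM (10.7-fold, interval 7.95 to 14.6). Igsf5, which overlaps Pcp4 on the same strand in GENCODE, was at 24.5 and 22.9 CPM, so it did not share the difference. On the other strand of Eps8l3, 4933431E20Rik was at 28.5 and 8.10 CPM.

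The remaining 4 members encode enzymes or a subunit of one. Car2, a cytosolic carbonic anhydrase that interconverts carbon dioxide and bicarbonate (chromosome 3, 14886273 to 14900770, plus strand), had the highest count of the 9. It reached 1159 CPM in small intestine cells and 361 CPM in colon cells, and its 3.21-fold difference (interval 3.07 to 3.37) was the smallest of the 9. Hs6st2, a sulfotransferase of heparan sulfate chains (chromosome X, 51387212 to 51681856, minus strand), was at 100.3 and 12.8 CPM (7.82-fold, interval 6.18 to 10.0). Ppp1r3b, which brings protein phosphatase 1 to glycogen (chromosome 8, 35375739 to 35388139, plus strand), was at 95.8 and 19.9 CPM (4.81-fold, interval 3.96 to 5.88). Gda, the guanine deaminase of purine breakdown (chromosome 19, 21391307 to 21473445, minus strand), was at 41.2 and 9.79 CPM (4.21-fold, interval 3.18 to 5.65). All 9 intervals lay above 2.

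**Figure D1:**
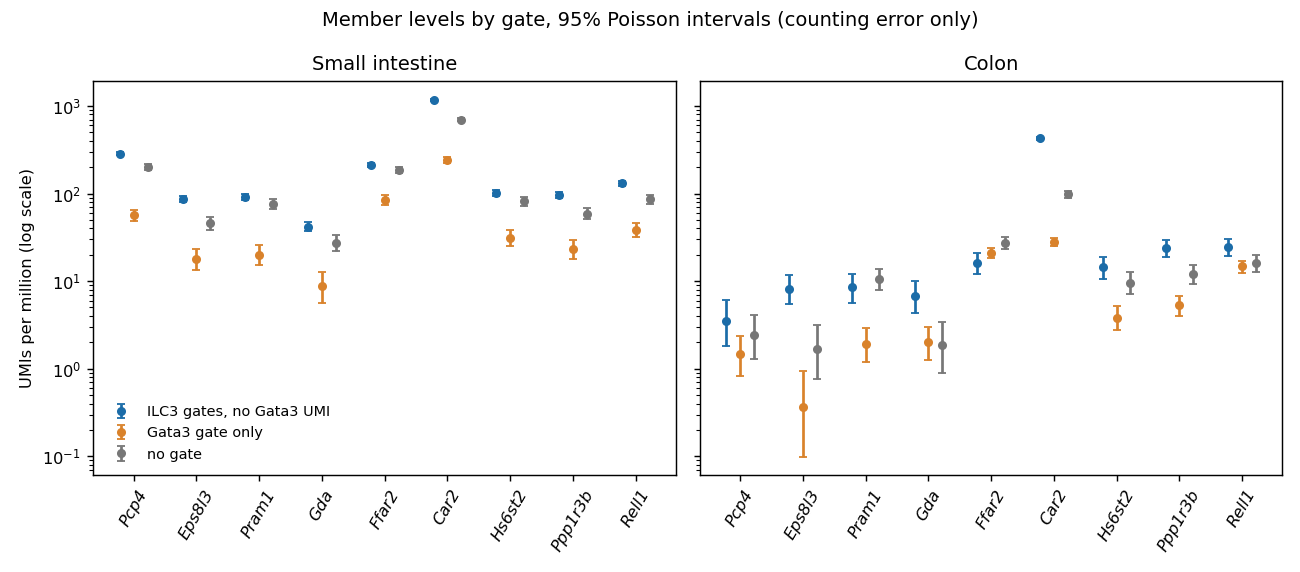
Level of each gene (vertical axis, CPM, log scale) in cells of the ILC3 gates without a Gata3 UMI, of the Gata3 gate alone and of no gate, in the small intestine (left) and colon (right). Points are summed levels and bars 95% Poisson intervals for counting error; in the small intestine each gene is lowest in the Gata3 gate alone (Car2 at 241 CPM against 1177 CPM in the ILC3 gates).

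The difference between tissues was then measured outside the ILC3 gates. In cells of the Gata3 gate alone (960 and 3718 cells), 9 of 9 members exceeded the colon at least 2-fold, against 5.24% of all genes. Pcp4 was at 56.2 CPM in small intestine cells and 1.45 CPM in colon cells (38.7-fold, interval 23.1 to 69.2), and Car2 at 241 and 28.1 CPM (8.59-fold, interval 7.51 to 9.85). The Car2 ratio was thus larger among Gata3 cells than in the ILC3 gates, and the Ffar2 ratio smaller (84.7 against 21.2 CPM, interval of the ratio 3.33 to 4.80), a contrast that was not tested. In cells of no gate (1309 and 2225 cells) 9 of 9 were at least 2-fold higher, against 8.43% of all genes, with Pcp4 at 200.5 and 2.41 CPM. The genes were accordingly also higher in small intestine cells outside the ILC3 gates. These cells share the libraries on whose contrast the genes were chosen, so the counts are no independent repeat. Within the ILC3 gates the Ccr6 gate had the fewest cells (541 and 357), and there the counting interval of the Gda ratio (10 against 8 UMIs, 0.521 to 4.28) included 1.

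RNA released from broken cells enters every droplet, and its level was estimated from barcodes with 10 to 50 UMIs and from antibody genes. It made up 5.36% of the UMIs of small intestine cells and 8.25% in the colon. In the small intestine ILC3 gates this free RNA equalled 2.36% (Gda) to 4.54% (Rell1) of a member's level, and in cells of the Gata3 gate alone 6.58% (Ffar2) to 21.4% (Car2). In colon cells of the Gata3 gate alone it equalled 3.61% (Ffar2) to 79.0% (Eps8l3, 4 UMIs), and 57.8% for Car2. With free RNA subtracted, the Car2 ratio between the tissues in these cells was 15.5. For Il22 the estimate exceeded the level seen, at 202 against 115 CPM in these colon cells. In the small intestine cells of the Gata3 gate alone it was 311 against 298 CPM. By the gate rule these sets hold no cell with at least 5 Il22 UMIs, which lowers the Il22 level seen by an amount not measured. The colon shares and the ratio of 15.5 may be too large, but the Il22 values alone cannot settle this. A narrower set of Gata3 cells, with at least 3 Gata3 UMIs and no ILC3 gate, had 443 small intestine and 1602 colon cells. There Pram1 (3.31 CPM in the small intestine), Eps8l3 (3.31 CPM) and Gda (1.32 CPM) lay close to the level free RNA alone would give, at 3.65, 3.01 and 0.972 CPM. Car2 was at 78.0 CPM against 51.7 CPM, and Ppp1r3b at 3.97 against 2.27 CPM. Ffar2 stayed well above it, at 60.2 against 5.57 CPM, as did Hs6st2 (21.2 against 2.62 CPM), Rell1 (23.1 against 6.01 CPM) and Pcp4 (22.5 against 10.3 CPM).

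Of the 6 members with at least 20 UMIs in this narrower set, 4 exceeded their colon level at least 2-fold, against 3.77% of all genes. Pcp4 had 34 small intestine and 4 colon UMIs (29.1-fold, interval 10.4 to 113). Hs6st2 was 7.30-fold higher (interval 3.84 to 14.5), Car2 4.64-fold (interval 3.49 to 6.19) and Ffar2 2.88-fold (interval 2.16 to 3.85). Rell1 was 1.62-fold (interval 1.05 to 2.45) and Ppp1r3b at 1.03-fold (interval 0.337 to 2.65). Eps8l3 had 5 small intestine UMIs and 0 colon UMIs, at least 5.70-fold higher when set against 3 counts over the colon set. In the plot of tissue ratios Pcp4, Hs6st2, Car2 and Ffar2 therefore lay above 2 in the most strongly Gata3-positive cells. The intervals of Ppp1r3b, Gda and Pram1 included 1. Gda and Pram1 had fewer than 20 UMIs over both sets, and the Ppp1r3b interval also included 2. These counts are too few to set those 3 genes apart from the others. For Car2, free RNA equalled 66.2% of the level in this small intestine set and 96.4% of that in the colon set. The same estimate for Il22 was 113% and 186% of the level seen, again in cells chosen to have fewer than 5 Il22 UMIs. These shares may be too large, but the Il22 values alone cannot settle this.

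**Figure D2:**
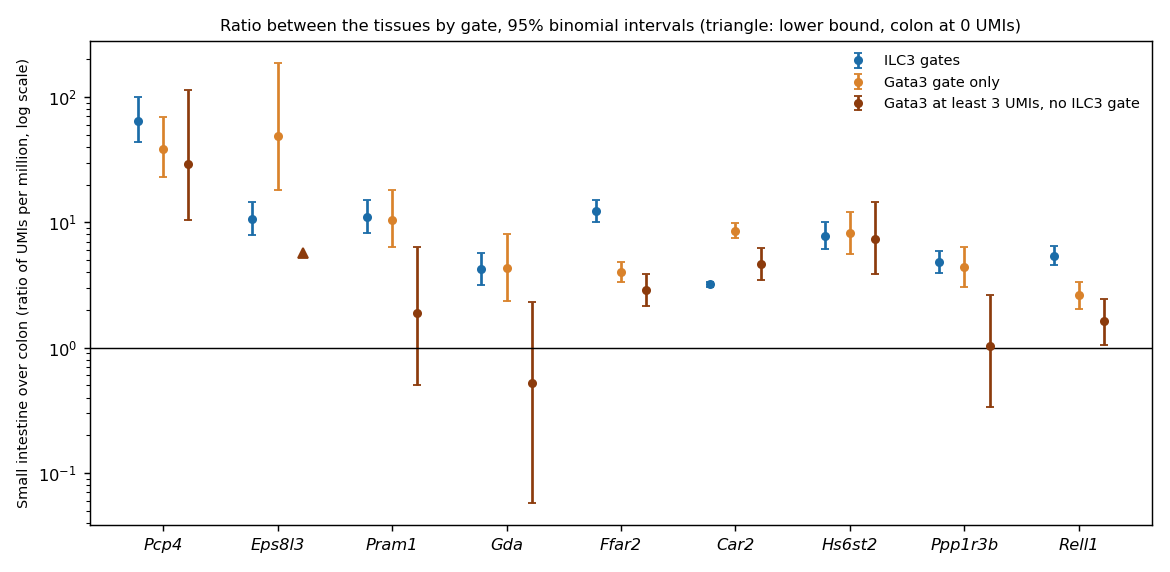
Ratio of small intestine to colon level for each gene (vertical axis, log scale) in the ILC3 gates, the Gata3 gate alone and the narrower Gata3 set, with 95% binomial intervals for counting error and a line at 1. All points for the ILC3 gates and the Gata3 gate alone lie above 2. In the narrower set the intervals of Pram1, Gda and Ppp1r3b, at few UMIs, include 1 (the triangle for Eps8l3 is a lower bound).

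Within the small intestine, the ILC3 gates were compared with the Gata3 gate as a whole. All 9 genes were higher in the ILC3 gates, by 1.56-fold for Ffar2 to 1.96-fold for Pram1, and 0 of 9 reached 2-fold, as did 3.24% of all genes. The 683 cells in both gates had levels like those of the ILC3 gates, with Pcp4 at 279 CPM and Car2 at 1098 CPM. When these cells were left out of both sets, 9 of 9 genes were at least 2-fold higher in the ILC3 gates, against 12.2% of all genes. Their median log2 ratio was then 2.19, against 0.23 for all genes. The 9 genes were listed as small intestine ILC3 markers from earlier results of these cells, so the 9 of 9 describes the choice. Markers of other cells also differed between these sets: 5 of 8 T cell markers were at least 2-fold lower in the ILC3 gates (median −1.12), 6 of 10 ILC1 and NK markers higher and 1 lower (median 1.63), 4 of 5 epithelial markers higher (median 3.16), and 4 of 6 B and plasma cell markers higher and 1 lower (median 3.38). The summed epithelial level was 53.7 against 13.4 CPM. In the ILC3 gates as a whole, 92 of 103 Krt8 UMIs lay in 1 cell, and 54 of 85 Epcam UMIs in 1 cell. The part of these other cell types in the result was not tested. The share of all genes at least 2-fold lower in this contrast is not given here, so the counts of lower markers are read as no result. The ratios ran from 5.08 for Pcp4 (286 against 56.2 CPM, interval 4.34 to 5.98) and 4.88 for Car2 (1177 against 241 CPM, interval 4.52 to 5.27) down to 3.24 for Hs6st2 (interval 2.61 to 4.07) and 2.48 for Ffar2 (interval 2.17 to 2.85). In the few cells without a UMI of any T cell gene (509 in the ILC3 gates and 143 in the Gata3 gate, with overlap), the median was 0.15, and Gda, Pcp4 and Rell1 were at log2 ratios of −0.75, −0.18 and −0.14.

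In the colon, 6 of 9 genes were at least 2-fold higher in the ILC3 gates than in the Gata3 gate, against 8.5% of all genes. Car2 was at 361 and 73.5 CPM (4.91-fold, interval 4.55 to 5.30), and Eps8l3 at 8.10 and 1.78 CPM (4.56-fold, interval 2.74 to 7.78). Ffar2 did not share this, at 17.0 CPM in the ILC3 gates and 20.6 CPM in the Gata3 gate (0.825-fold, interval 0.651 to 1.04). Rell1 stood at 24.5 and 16.6 CPM (1.48-fold, interval 1.19 to 1.83). Without the shared cells 7 of 9 reached 2-fold, against 11.2% of all genes, with Car2 at 15.2-fold (interval 13.4 to 17.2). Car2 was thus higher in the ILC3 gates of both libraries, while the colon interval of Ffar2 included 1. Whether the Ffar2 ratio differs between the tissues was not tested.

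The 3 ILC3 gates were next compared within the small intestine, using cells of exactly 1 gate: 738 with Ncr1 only, 167 with Ccr6 only and 921 with Il22 only. From Ccr6 to Ncr1 cells, 5 of 9 genes were at least 2-fold higher in Ncr1 cells, against 9.71% of all genes, and 1 was at least 2-fold lower, against 7.59%. Markers of ILC1 and NK cells moved with this contrast: 10 of 10 tested were at least 2-fold higher in Ncr1 cells (median log2 ratio 3.53), as were 4 of 8 T cell markers (median 1.03), while of 14 ILC3 markers 1 was higher and 5 were lower (median −0.64). Their part in the differences was not tested. Pcp4 was at 291 CPM in Ncr1 cells, 276 CPM in Il22 cells and 7.97 CPM, or 3 UMIs, in Ccr6 cells (Ncr1 over Ccr6 36.5-fold, interval 12.4 to 177). Gda was at 72.7, 20.4 and 2.66 CPM, the last from 1 UMI (27.4-fold, interval 4.83 to 1088). Eps8l3 (120 against 15.9 CPM, 7.54-fold, interval 3.41 to 20.7), Ppp1r3b (132 against 34.5 CPM, 3.83-fold, interval 2.20 to 7.29) and Pram1 (124 against 45.1 CPM, 2.75-fold, interval 1.68 to 4.80) were lower in Ccr6 cells too. In Ccr6 cells the counting intervals of Pcp4 (1.64 to 23.3 CPM) and Gda (0.0671 to 14.8 CPM) included the levels that free RNA alone would give, 10.3 and 0.972 CPM.

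Rell1 ran the other way. It was at 61.1 CPM in Ncr1 cells, 151 CPM in Ccr6 cells and 188 CPM in Il22 cells, so Ccr6 cells had 2.48-fold more than Ncr1 cells (interval 1.78 to 3.42) and Il22 cells 3.07-fold more (interval 2.51 to 3.79). Car2 (1293, 672 and 1113 CPM) and Ffar2 (251, 143 and 187 CPM) were spread over all 3 sets. Hs6st2 was the most even, at 92.9, 79.7 and 112 CPM, with an Ncr1 over Ccr6 ratio of 1.17 (interval 0.789 to 1.78). The 9 genes accordingly formed no single pattern across the 3 gates.

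**Figure D3:**
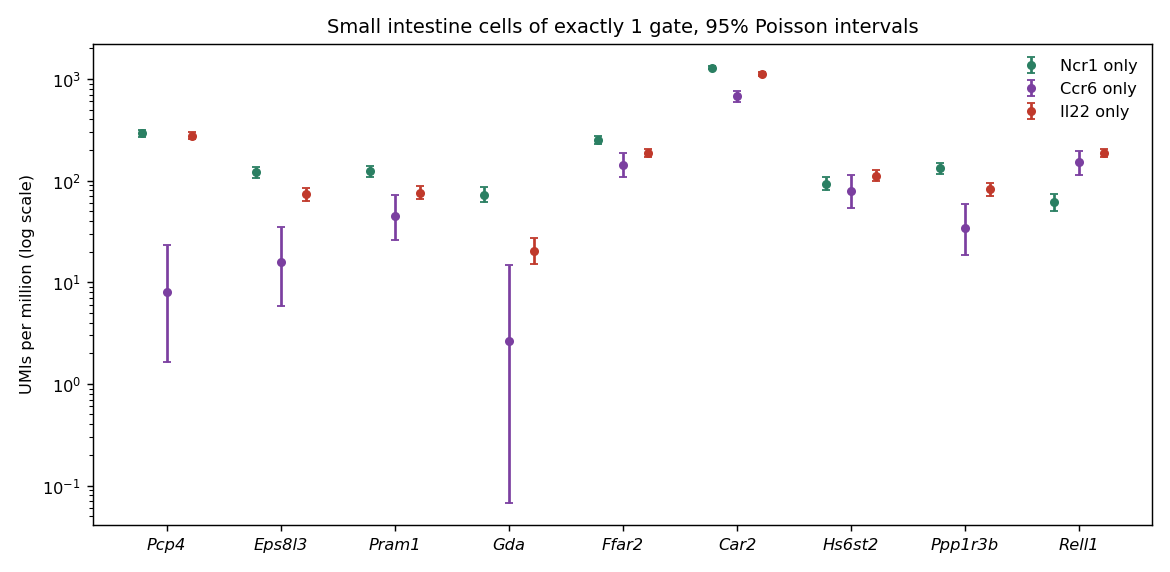
Level of each gene (vertical axis, CPM, log scale) in small intestine cells of the Ncr1, Ccr6 or Il22 gate only, with 95% Poisson intervals for counting error. Pcp4 and Gda are lowest in Ccr6 cells (7.97 and 2.66 CPM), while Rell1 is lowest in Ncr1 cells (61.1 CPM).

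Levels were also followed with Il22 counts in small intestine cells without a Gata3 UMI. Il22 was counted after thinning, a random draw of 1000 UMIs from each cell, while levels used all UMIs. The sets held similar depth (medians of 2395 to 2498 UMIs a cell). Rell1 was at 74.6 CPM in 1458 cells with 0 Il22 UMIs, 96.0 CPM at 1 UMI, 135 CPM at 2 to 4 UMIs, 174 CPM at 5 to 9 UMIs and 171 CPM at 10 or more. Gda went from 40.9 CPM at 0 to 22.5 CPM at 10 or more UMIs. Ffar2 stayed between 191 and 205 CPM in all 5 sets. Car2 went from 891 CPM at 0 to 1202 CPM at 10 or more UMIs, and Pcp4 from 217 to 277 CPM. Between these ends, sets at 2 to 4 and 5 to 9 UMIs were close for Pcp4 (331 and 306 CPM) and Car2 (1122 and 1187 CPM). The gate of 5 Il22 UMIs used unthinned counts, so these sets are not the cells just below and just above it.

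Single cells thinned to 1000 UMIs each, with 0 left out, gave the share of cells in which a gene was seen. Car2 was seen in 62.1% of small intestine cells in the ILC3 gates (interval 60.4 to 63.7, unthinned 85.7%) and in 16.5% of cells of the Gata3 gate alone (interval 14.2 to 19.0, unthinned 29.2%). Pcp4 was seen in 13.3% (interval 12.2 to 14.6, unthinned 21.0%) and 3.65% (interval 2.55 to 5.03, unthinned 6.77%), and Ffar2 in 18.3% (interval 17.0 to 19.7, unthinned 36.9%) and 9.90% (interval 8.08 to 12.0, unthinned 20.9%). Median depths were 2558 UMIs in the ILC3 gates and 2998 UMIs in the Gata3 gate alone. In the ILC3 gates Pcp4 was thus seen in fewer cells than Ffar2 although its summed count was higher.

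At this depth a small intestine cell of the ILC3 gates showed a mean of 1.43 of the 9 genes, and 14.6% of these cells showed at least 3. In cells of the Gata3 gate alone the mean was 0.432 and 2.40% showed at least 3. In the colon ILC3 gates the mean was 0.390, and 2 of 1606 cells, or 0.125%, showed 3 (interval 0.0151 to 0.449). Small intestine cells of the Ccr6 gate showed at least 3 in 6.47%, and those of the Ncr1 gate in 18.7%. The genes were therefore mostly seen 1 or 2 at a time in a cell.

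**Figure D4:**
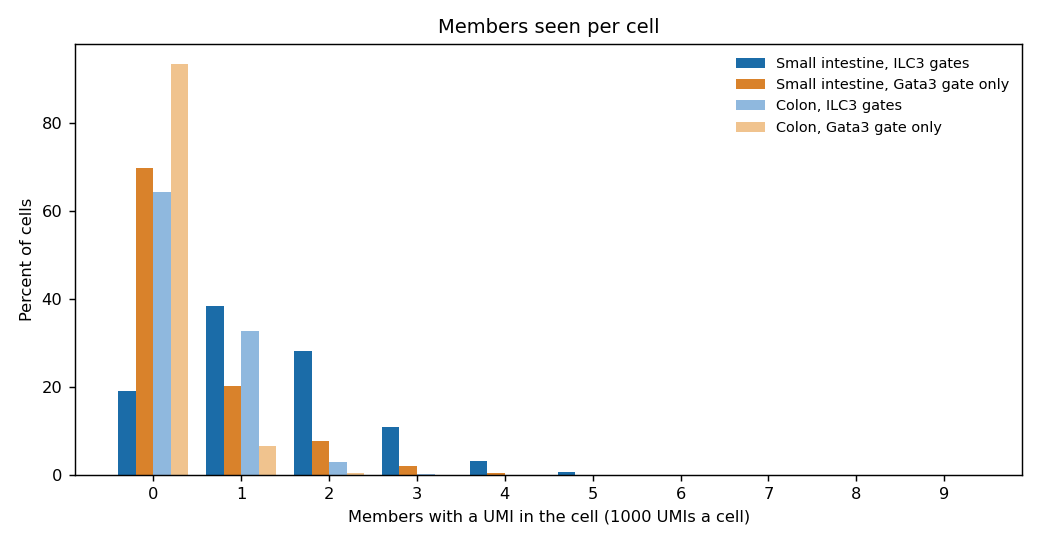
Percent of cells (vertical axis) by the number of the 9 genes with a UMI after thinning to 1000 UMIs a cell (horizontal axis), for the ILC3 gates and the Gata3 gate alone in each tissue. In the small intestine ILC3 gates 19.0% of cells show 0 genes, against 69.7% in the Gata3 gate alone and 64.2% in the colon ILC3 gates.

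For each of the 36 pairs of members, cells with both genes were counted against the product of the single shares. In the small intestine ILC3 gates 27 of 36 pairs were seen together above that product, with a median ratio of 1.18, and the intervals of 7 pairs lay above 1 and of 1 pair below. The highest were Pram1 with Gda (20 cells against 9.13 expected, ratio 2.19, interval 1.34 to 3.38), Pcp4 with Gda (33 against 16.0, ratio 2.06, interval 1.42 to 2.89) and Pcp4 with Pram1 (58 against 32.7, ratio 1.77, interval 1.35 to 2.29). Gda with Rell1 was lowest (6 against 14.5, ratio 0.415, interval 0.152 to 0.902). The correlation of detection between members was weak in all pairs, from −0.043 to 0.087 over 3221 cells that share 1 library, and is no finding in itself. In cells with Ncr1 only, 23 of 29 pairs with at least 5 expected cells were above the product, with 2 intervals above 1. All 9 pairs below the product held Rell1 or Hs6st2, and the 3 highest joined Pcp4, Pram1 and Gda, which were higher in Ncr1 than in Ccr6 cells.

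**Figure D5:**
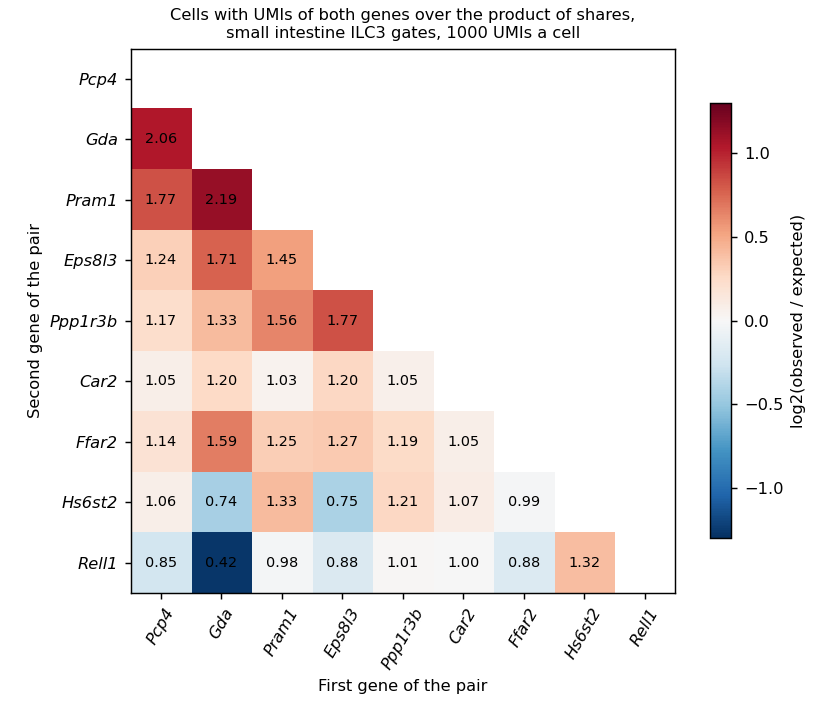
Ratio of cells with UMIs of both genes to the number expected from the single shares (numbers and colour, log2 colour scale) for the 36 pairs in 3221 small intestine cells of the ILC3 gates at 1000 UMIs a cell. Ratios run from 0.415 for Gda with Rell1 to 2.19 for Pram1 with Gda.

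The same count was made against Gata3 over all 5490 small intestine cells. All 9 members were seen with Gata3 less than the product of shares, with ratios from 0.261 to 0.718 and every interval below 1. The 9 genes were listed as small intestine ILC3 markers from earlier results of these cells, so this count describes the choice. The cells share 1 library, and the intervals cover counting error only. Within the small intestine ILC3 gates the members were not all below the product: 4 of 9 were above it, the median ratio was 0.911 and 1 interval lay below 1. In the Il22 gate 4 of 8 pairs with enough expected cells were above it (median 1.04). Over all cells the lowest ratio was that of Gda (7 cells against 26.8 expected, interval 0.105 to 0.538) and the highest that of Rell1 (64 against 89.1, interval 0.554 to 0.915).

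Genes related to each member were compared between the tissues in the ILC3 gates. For Pcp4, 0 of 14 tested calmodulin-related genes exceeded the colon 2-fold and 1 was lower, the kinase gene Camk1 (4.41 against 9.45 CPM), where 4.95% of all genes were at least 2-fold lower. For Eps8l3, 2 of 10 family members and partners were higher, Abi3 (65.7 against 15.2 CPM, 4.33-fold, interval 3.46 to 5.46) and Eps8 (11.1 against 3.04 CPM, 3.65-fold, interval 2.19 to 6.41), and Baiap2 was 3.01-fold lower (interval 2.63 to 3.45). For Pram1, 0 of 11 integrin adaptors passed 2-fold in either direction. The median log2 ratios of these lists were 0.11, 0.47 and 0.22, against 0.20 for all genes.

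These counts stand beside 7.73% of all genes at least 2-fold higher and are read as no result about the lists. Around the enzymes, 2 of 16 purine genes were higher in the small intestine, Nt5e, the ectoenzyme CD73 that makes adenosine (75.3 against 13.8 CPM, 5.44-fold, interval 4.32 to 6.93), and Xdh, xanthine dehydrogenase, which acts after Gda (23.6 against 7.09 CPM, 3.33-fold, interval 2.38 to 4.76). Of 16 glycogen genes, Ppp1r3f, another targeting subunit of protein phosphatase 1 (30.5 against 7.59 CPM, 4.02-fold, interval 2.92 to 5.64), and Pgm1 (31.0 against 12.8 CPM, 2.42-fold, interval 1.87 to 3.16) were higher. None of the 13 tested heparan sulfate enzymes passed 2-fold in either direction. Of 3 carbonic anhydrases tested, Car9 was higher (4.97 against 1.69 CPM, 2.95-fold, interval 1.46 to 6.57), and Car1 had 0 small intestine and 291 colon UMIs, 289 of them in 1 cell. The medians were 0.36 for purine genes, 0.39 for glycogen genes and −0.14 for heparan sulfate enzymes.

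Around the membrane proteins, 1 of 6 metabolite receptors was at least 2-fold lower and 1 higher in small intestine cells (median −0.19). Of all genes, 4.95% were lower and 7.73% higher by this measure. The higher receptor was the vitamin D receptor gene Vdr (30 against 3 UMIs, 6.70-fold, interval 2.08 to 34.3). Of 5 RELT family genes and kinases 0 were higher and Relt was lower (2.83 against 6.24 CPM). Most genes related to the 9 therefore did not reach a 2-fold difference between the tissues.

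The genes whose levels over 8 sets of cells (the 4 single gates in each tissue) ran most like the mean of the members were named from 3755 candidates. They were Cisd2 (Pearson's r = 0.985), Prrt1 (0.962), Mrps5 (0.959), Wapl (0.957), Trp53 (0.953), Pde5a (0.952), Cflar (0.952), Sri (0.951), Sp3 (0.949) and Ube2k (0.947), a description over sets that share 2 libraries. Most differed little in level, such as Cisd2 at 233 CPM in small intestine Ncr1 cells and 153 CPM in colon Gata3 cells. Pde5a, a cyclic GMP phosphodiesterase, spanned a wider range, from 71.7 CPM in small intestine Il22 cells to 3.545 CPM in colon Gata3 cells.

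Some of the 9 genes are known from other cells, so marker lists of these were read in the small intestine ILC3 gates. Of 8 neutrophil markers 6 had 0 UMIs (S100a8, S100a9, Csf3r, Retnlg, Ly6g and Ngp), and so did the enteric neuron and glia markers Elavl4, Uchl1, Snap25 and Sox10, where 0 UMIs allow a level of up to 0.339 CPM each. The 18 epithelial markers summed to 43.6 CPM, with Krt20, Apoa1, Alpi and Car1 at 0, against 74.7 CPM in the colon ILC3 gates, where Car1 gave 49.1 CPM, with 289 of its 291 UMIs in 1 cell. Of 7 epithelial markers tested, 4 were at least 2-fold higher in small intestine and 2 lower (median log2 ratio 1.35). In small intestine, 92 of 103 Krt8 UMIs lay in 1 cell, and 54 of 85 Epcam UMIs in 1 cell. In the 3122 small intestine cells of the ILC3 gates without an epithelial UMI, Pcp4 was at 282 CPM and Car2 at 1166 CPM, against 284 and 1159 CPM in all of them. Markers of ILC1 and NK cells (1 and 2 of 12 at 0) summed to 1195 CPM in small intestine and 1422 CPM in colon cells of the ILC3 gates, T cell markers (0 and 2 of 11 at 0) to 1375 and 1208 CPM, and B and plasma cell markers (0 and 2 of 9 at 0) to 3743 and 944 CPM, and their part in the difference between tissues was not tested.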

How the data were processed

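UMI counts per gene and cell, as the authors deposited them in 1 table of both libraries, were used as they stood. They come from Cell Ranger 3.0.2 with build mm10, per the submitters' processing notes; filters on cells are not given in the sources used here. The table's counts equal the deposited unfiltered matrices in every cell. Members, gene lists and motifs were chosen with earlier results of these data known. For each gate, the UMIs of a gene were added up and divided by the total (CPM) with exact Poisson intervals. Ratios had exact conditional binomial intervals, and shares Clopper-Pearson intervals. Marker lists of cell types were summed from the unfiltered matrices at the same cells. Genes needed at least 20 UMIs over both sets, and 2-fold was the threshold for a count. With 1 library per tissue and cells that are no replicates, no test was run. Pairs were counted after thinning to 1000 UMIs a cell. Free RNA came from barcodes with 10 to 50 UMIs, with its share from Igkc, Igha and Jchain in cells with at most 10 such UMIs. Doublets were kept, and left out by Scrublet (scanpy 1.11.5) as an alternative. Besides the members, pathway genes were named at 2-fold or more, up to 4 a list, and the 10 genes with the most similar levels over single-gate sets, on log2(CPM + 10). Other alternatives changed the cells, gates, scaling and thinning. Ratio and co-detection code was tested on simulated data. Python 3.11.15, numpy 2.4.6, scipy 1.17.1 and pandas 2.3.3 were used. Gene positions are from GENCODE (mm10). Results on a few genes are not reported here.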

Additional observations from a re-analysis of the deposited data

Results flagged for a closer look

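In 3 contrasts within a tissue (ILC3 gates over Gata3 gate, with and without shared cells, and Ncr1 gate over Ccr6 gate), 5 ratios pointed one way in the small intestine library and the other way in the colon library. The log2 ratio of Ffar2 between the ILC3 gates and the Gata3 gate was 0.643 among small intestine cells and −0.277 among colon cells, and 1.313 and −0.395 without the shared cells. Between all cells of the Ncr1 gate and all cells of the Ccr6 gate, the log2 ratio of Pram1 was 1.283 and −0.057, that of Ffar2 0.627 and −0.234, and that of Hs6st2 0.073 and −0.45. The difference between the tissues was not tested in any of these, since there was 1 library each. All 5 counting intervals of the colon ratios included 1, in the Ncr1 and Ccr6 gates for Pram1 (21 and 16 UMIs), Ffar2 (36 and 31 UMIs) and Hs6st2 (18 and 18 UMIs), as did that of Hs6st2 in the small intestine.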

How the results depend on the processing

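No paired analysis was possible because each tissue had 1 library. The tissue ratio of the members in the ILC3 gates was at least 1 on the log2 scale in 107 of 108 values over 12 alternatives, the exception being Car2 at 0.964 without cells holding any T cell gene UMI, and 0 reversed. The median of 2.97 became 2.55 in cells with 2000 to 4000 UMIs. Within the small intestine the median ratio of ILC3 to Gata3 gates, 0.92, became 2.19 with exclusive gates, 1.97 with stricter gates and 0.15 without any T cell gene. The last left 509 and 143 cells, 63.6% of the 143 being also in the ILC3 gates, and turned Gda to −0.75, Pcp4 to −0.18 and Rell1 to −0.14. The count of members at 2-fold, 0 against 3.24% of all genes, became 9 with exclusive gates, against 12.2% of all genes. It became 9 with stricter gates, 3 without Scrublet doublets, 2 after free RNA was subtracted and 4 in cells with 2000 to 4000 UMIs. For these other alternatives the share of all genes was not counted, so their counts are read as no result about the members. Pairs above the product of shares were 27 of 36 and became 9 of 13 without any T cell gene, where only 13 pairs had 5 expected cells, and 34 of 36 without thinning. Median-of-ratios scaling moved all log2 ratios by 0.20 between tissues and 0.13 between gates. Scrublet's own threshold marked 0 of 5490 small intestine cells, so its 241 top-scoring cells were left out. Leaving out cells with Cd3e or Trdc, keeping 2000 to 4000 UMIs, and subtracting free RNA in the Gata3 gate alone were chosen after seeing the data. The depth limits members at a few UMIs, such as Pcp4 and Gda in Ccr6 cells.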

Other observations

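The members were also counted in cells with a UMI of Cd3e, a T cell receptor complex gene, of which small intestine had 429 and colon 1384. Pcp4 was at 172 CPM in these small intestine cells and at 0.711 CPM, or 3 UMIs, in these colon cells, Car2 at 264 and 73.7 CPM, and Ffar2 at 114 and 28.7 CPM. Eps8l3 (12.0 CPM) and Gda (3.44 CPM) were low in the small intestine cells with Cd3e, below their levels of 86.3 and 41.2 CPM in the ILC3 gates. The small intestine cells with an Il1rl1 UMI, 116 in all, had Gda at 0 UMIs, which allows up to 7.14 CPM, Eps8l3 at 11.9 CPM and Ffar2 at 95.2 CPM.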
